A study of Mus musculus with 2 samples.

Results

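The interferon-inducible GTPases described here are 10 mouse genes, taken from 32285 genes in the deposited matrices. They are the guanylate-binding proteins (GBPs) Gbp2, Gbp3, Gbp4, Gbp5 and Gbp7 and the immunity-related GTPases (IRGs) Iigp1, Igtp, Irgm1, Tgtp1 and Tgtp2. They were chosen as a named list, and their UMIs (unique molecular identifiers, each standing for 1 captured transcript) were summed per library in cell classes set by a few marker genes. Subcutaneous mouse tumours were profiled cell by cell for gene expression and T cell receptors on the 10x Genomics platform. The 2 groups were mice on a serine/glycine-free diet and mice on a control diet, with 1 library per diet. The labels give no strain, sex, age, tumour line or number of mice, and the tissue named in the extraction protocol (human cardiac septum) conflicts with the mouse and tumour given elsewhere in them.

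With 1 library per diet no test between diets exists, and no standard error can be given. Each ratio below is the serine/glycine-free value over the control value, with a 95% interval that covers counting error only and says nothing about the spread between mice. The serine/glycine-free library held 7999 cell barcodes and 157234945 UMIs, and the control library 8466 barcodes and 161332426 UMIs. Barcodes under 300 genes or over 20% mitochondrial UMIs were dropped, leaving 7913 and 8262. The libraries shared 104 barcodes.

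As background, interferon gamma binds its receptor, activates the kinases Jak1 and Jak2, and GBP and IRG genes are turned on through promoter elements called GAS and ISRE, the ISRE being bound by factors such as Irf1. The proteins gather on vacuoles that hold parasites or bacteria and help to break them, and in macrophages Gbp2 and Gbp5 are known for their part in inflammasome activation. Among the IRGs, Irgm1 and Igtp (also called Irgm3) regulate the family, while Iigp1 (Irga6) and Tgtp1 and Tgtp2 (Irgb6) act as effectors that load onto the vacuole.

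On the mouse build GRCm38.p6 in RefSeq, Gbp5, Gbp7, Gbp3 and Gbp2 lay in that order on chromosome 3 between positions 142496934 and 142638008. Gbp4 lay on chromosome 5, from 105115767 to 105139586. Irgm1, Tgtp1 and Tgtp2 lay together on chromosome 11 between 48865245 and 49064212, and Igtp further along it, from 58199556 to 58207592. RefSeq promoter windows (250 bases before to 50 after each start) were held for 8 of the 10 members, Gbp4 and Iigp1 not among them. The ISRE-type letters (TTTC, any 2 bases and TTTC, or on the other strand GAAA, any 2 bases and GAAA, overlaps included) occurred in at least 1 window of all 8, against 3.99% of all 27025 genes with a window. The palindromic GAS-type letters TTCNNNGAA occurred in 5 of the 8 (Gbp5, Gbp7, Igtp, Tgtp1 and Tgtp2), against 9.55% of all genes. A match of letters is a description and does not show that a factor was bound.

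These 70-base windows of 6 members show the ISRE-type letters in GBPs of chromosome 3 and IRGs of chromosome 11. They are written 5′ to 3′ on the gene's own strand, with the ISRE-type letters in capitals.
Gbp2 (chr3:142620574-142620643, plus strand): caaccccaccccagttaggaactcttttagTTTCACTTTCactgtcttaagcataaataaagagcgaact
Gbp7 (chr3:142530253-142530322, plus strand): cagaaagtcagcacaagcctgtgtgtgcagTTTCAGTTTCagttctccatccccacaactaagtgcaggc
Igtp (chr11:58199492-58199561, plus strand): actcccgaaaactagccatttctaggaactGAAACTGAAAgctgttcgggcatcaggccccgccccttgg
Irgm1 (chr11:48871411-48871480, minus strand): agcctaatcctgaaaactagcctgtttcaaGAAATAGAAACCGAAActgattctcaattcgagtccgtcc
Tgtp1 (chr11:48992284-48992353, minus strand): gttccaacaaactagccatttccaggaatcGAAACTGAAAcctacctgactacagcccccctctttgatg
Tgtp2 (chr11:49064243-49064312, minus strand): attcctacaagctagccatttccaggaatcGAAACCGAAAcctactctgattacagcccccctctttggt
The Irgm1 window holds overlapping matches. In the IRGs shown the letters run as GAAA, in the GBPs as TTTC. The Tgtp1 and Tgtp2 windows had the same base at 49 of 70 positions when set end to end without gaps. Tgtp1 and Tgtp2 are near-identical copies, so how the authors' counting shared reads between them is uncertain, and their sum is given as well. Other members are paralogs too, and their single values carry the same doubt to a lesser degree.

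Cells with a TRB contig (an assembled T cell receptor beta chain) were T cells, 243 in the serine/glycine-free library and 242 in the control library. Of these, 162 and 69 had CD8 and no CD4 UMIs, and 30 and 55 had Cd4 and no CD8 UMIs. Macrophages were cells with C1qa, C1qb and C1qc making up at least 0.1% of UMIs and no Krt20, 632 and 694 cells. Tumour cells were those with at least 1 Krt20 UMI and no Ptprc, 4613 and 4121 cells. Median UMIs per cell were 5845 and 2754 in T cells, 10472 and 9585 in macrophages, and 23206 and 25087 in tumour cells.

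The classes were set against markers. Cd3e, a chain of the T cell receptor complex, was at 889 and 576 CPM (UMIs per 1000000 UMIs of the class) in T cells and 0.199 and 0.184 CPM in tumour cells. In the tumour class Krt20 was at 248 and 158 CPM, but the other epithelial markers were low: Krt18 was at 19.6 and 24.1 CPM, and Krt7, Krt8, Krt19, Epcam and Cdh1 were each under 1 CPM in both libraries. The fibroblast marker Dcn was at 497 and 260 CPM there. The data therefore do not bear out an epithelial identity beyond Krt20, and the class is called Krt20-positive cells below. T cells also carried RNA of other cells: the 8 macrophage markers summed to 154 CPM in the serine/glycine-free and 434 CPM in the control T cells, and Hbb-bs, a haemoglobin chain, was at 0 and 703 CPM.

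The 10 members together differed between diets in opposite directions in different classes. In Krt20-positive cells their sum was 586 CPM in the serine/glycine-free library and 345 CPM in the control library (ratio 1.70, 1.68 to 1.72). In macrophages it was 1008 and 834 CPM, a ratio of 1.21 (1.17 to 1.25). In T cells the sum was 608 CPM in the serine/glycine-free library against 966 CPM in control T cells (ratio 0.630, 0.586 to 0.677). In CD8 T cells it was 540 and 1019 CPM, a ratio of 0.530 (0.475 to 0.592). In CD4 T cells the sums were 760 and 863 CPM, with a ratio of 0.880 whose interval (0.730 to 1.06) spans 1.

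**Figure D1:**
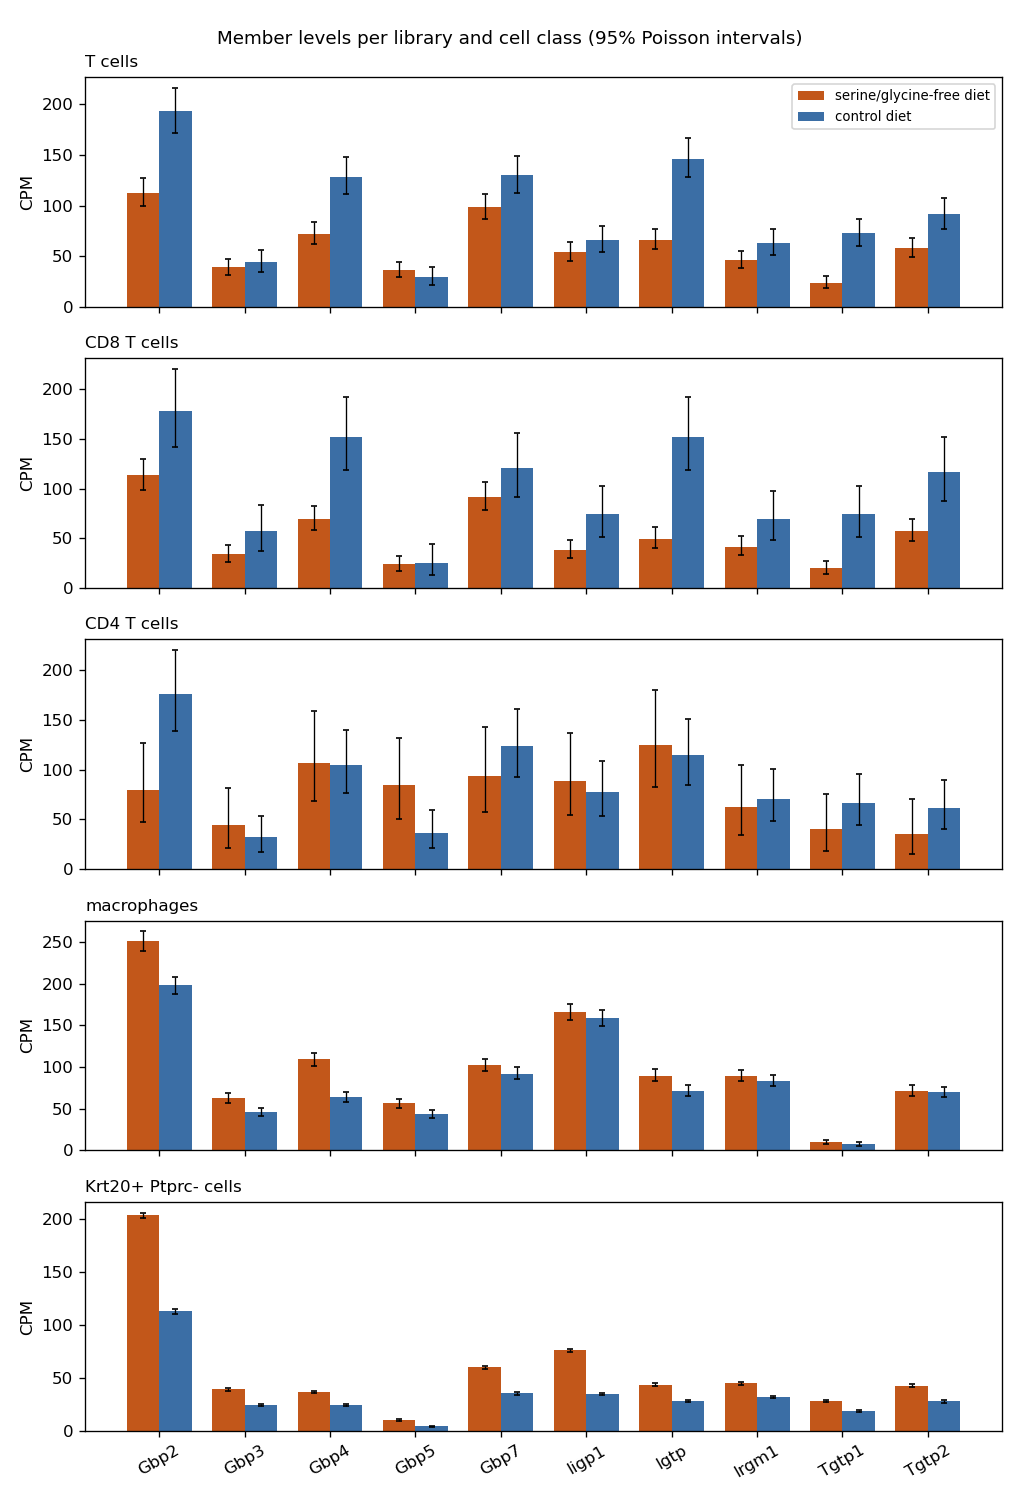
Level of each of the 10 members in CPM (vertical axis, bars from 0) in 5 cell classes, with the serine/glycine-free library left of the control library and 95% Poisson intervals for counting error. In Krt20-positive, Ptprc-negative cells all members are higher on the serine/glycine-free diet, and in CD8 T cells all 10 are lower, Gbp5 by little.

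The order of the classes within a library differed as well. On the serine/glycine-free diet macrophages had the highest member sum, 1.72 times that of Krt20-positive cells (1.68 to 1.76), and T cells were at 1.04 times Krt20-positive cells (0.985 to 1.09), an interval that spans 1. On the control diet T cells were at 2.80 times (2.66 to 2.95) and macrophages at 2.42 times Krt20-positive cells (2.35 to 2.48). The order of macrophages and T cells turned round: macrophages were at 1.66 times T cells on the serine/glycine-free diet and at 0.863 times T cells on the control diet.

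Krt20-positive cells gave the most precise values, since their sums rest on 67737 and 37486 member UMIs. All 10 members had ratios above 1, and every interval lay above 1. The rest of the transcriptome ran slightly the other way. The median log2 ratio was 0.56 over the 10 members (log2 of CPM plus 5, here and for every log2 ratio). It was -0.09 over all 5463 genes averaging 20 CPM or more, a filter that 9 of the members passed. Of the 9, 3 were higher by 1.5 fold or more on that scale (Gbp2, Gbp7 and Iigp1), and none was lower; 1.79% of all genes passed that fold upwards and 0.677% downwards.

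Among the effectors, Iigp1, encoded on chromosome 18, was at 76.0 CPM in the serine/glycine-free and 34.9 CPM in the control Krt20-positive cells, a ratio of 2.18 (2.10 to 2.26). Tgtp1 and Tgtp2 together were at 71.3 and 47.0 CPM, a ratio of 1.52 (1.46 to 1.57). Tgtp1 alone was at 28.4 and 19.0 CPM and Tgtp2 at 42.9 and 28.0 CPM. Of the regulators of the family, Igtp was at 43.9 and 28.5 CPM (ratio 1.54) and Irgm1 at 45.1 and 32.2 CPM, the lowest ratio of the 10 at 1.40 (1.34 to 1.46).

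Of the GBPs, Gbp2 was at 203 CPM in the serine/glycine-free and 113 CPM in the control Krt20-positive cells, a ratio of 1.80 (1.76 to 1.84). It alone made up 34.6% and 32.6% of the member UMIs. Gbp5, a partner of inflammasome activation, was at 10.7 and 4.82 CPM, under the 20 CPM filter, and had the largest ratio of the 10 at 2.22. Gbp7 was at 60.0 and 35.6 CPM (1.69), Gbp3 at 39.4 and 24.7 CPM (1.59) and Gbp4 at 37.1 and 24.5 CPM (1.51). Without cells that held a UMI of the endothelial markers Pecam1, Cdh5 or Kdr the ratio of the sum was 1.68, and without those holding C1q, Cd3e or Tyrobp it was also 1.68. Other markers moved with the members across the class. The monocyte markers summed to 190 and 97.1 CPM (ratio 1.96), the fibroblast markers to 714 and 479 CPM (1.49) and the endothelial markers to 6.13 and 2.80 CPM (2.19). The part of the monocyte and fibroblast markers in the result was not tested.

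**Figure D2:**
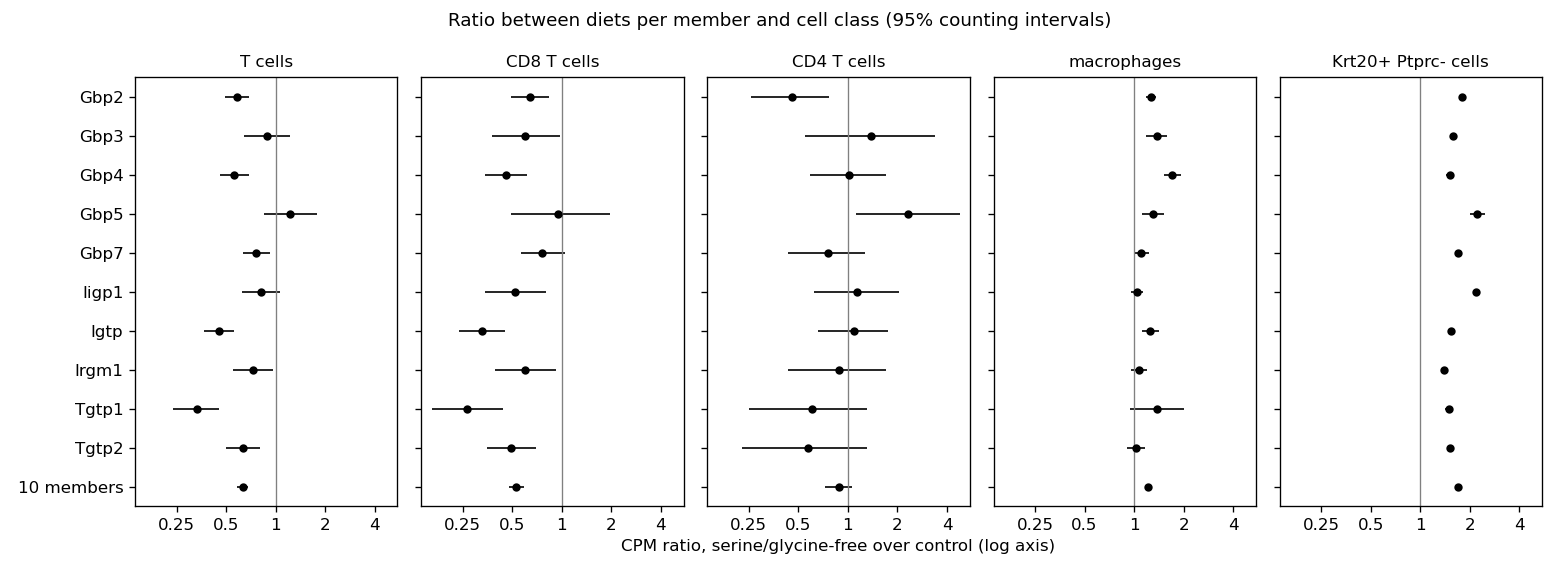
Ratio of CPM, serine/glycine-free over control (horizontal, log axis; 1 is the grey line), for each member and their sum in 5 cell classes, with 95% counting intervals. The points sit right of 1 in Krt20-positive, Ptprc-negative cells and macrophages and left of 1 in CD8 T cells, while in CD4 T cells most intervals span 1.

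In macrophages the differences were smaller and fell mostly on the GBPs. All 10 ratios were above 1, but for Gbp7, Iigp1, Irgm1, Tgtp1 and Tgtp2 the interval spanned 1. The 5 GBPs summed to 581 and 443 CPM (ratio 1.31, 1.25 to 1.37) and the 5 IRGs to 426 and 391 CPM (1.09, 1.04 to 1.15). Gbp4 stood out at 109 CPM in the serine/glycine-free and 64.1 CPM in the control macrophages, a ratio of 1.71 (1.52 to 1.92). It was the 1 member of 9 measured that was higher by 1.5 fold or more, against 2.15% of all genes; none was lower, against 1.43%. The median log2 ratio was 0.30 over the 10 members and -0.10 over all 5523 measured genes. In the macrophage class haemoglobin markers summed to 0 and 280 CPM and fibroblast markers to 146 and 250 CPM, and their part in the result was not tested.

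Gbp2 was at 251 and 198 CPM in macrophages (ratio 1.27), Gbp3 at 62.7 and 45.6 CPM (1.37) and Gbp5 at 56.1 and 43.2 CPM (1.30). Igtp was at 89.7 and 71.7 CPM (1.25, 1.11 to 1.41). Iigp1, the member with the largest diet ratio but one in Krt20-positive cells, was at 165 CPM in serine/glycine-free and 159 CPM in control macrophages, with a ratio of 1.04 (0.960 to 1.13). Macrophages also split the near-identical pair differently. Tgtp1 took 12.2% of the Tgtp1 and Tgtp2 UMIs in the serine/glycine-free macrophages (9.60 to 15.1) and 9.30% in the control ones (7.03 to 12.0), against 39.9% and 40.4% in Krt20-positive cells.

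In T cells 9 of the 10 members were lower in the serine/glycine-free library, though for Gbp3 and Iigp1 the interval spanned 1. Gbp5 was the exception, with 36.4 and 29.7 CPM and an interval that spans 1. Without cells holding Krt20 or C1q, Gbp3 was at a ratio of 1.18 and Iigp1 at 1.05, both with intervals spanning 1. Gbp5 was at 1.56 (1.05 to 2.36) in those cells, and the other members stayed below 1. The sums rest on 1520 and 1530 member UMIs. The median log2 ratio was -0.52 over the 10 members and -0.05 over all measured genes. The makeup of the T cells differed too, CD8 cells being 162 of 243 and 69 of 242, and its part in the ratios was not tested. Of the 10, all measured, 5 were lower by 1.5 fold or more (Gbp2, Gbp4, Igtp, Tgtp1 and Tgtp2), against 5.18% of all 5968 measured genes, and none was higher, against 3.33%. Tgtp1 was at 24.0 and 72.6 CPM, a ratio of 0.331 (0.238 to 0.456). Igtp was at 66.4 and 146 CPM, a ratio of 0.454 (0.369 to 0.556).

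CD8 T cells showed larger differences. Their sums rest on 1010 and 482 UMIs, and all 10 ratios were below 1. Here 8 members were lower by 1.5 fold or more, all but Gbp5 and Gbp7, against 10.6% of 5906 measured genes, and none was higher, against 7.5%. The median log2 ratio was -0.77 over the 10 and -0.05 over all measured genes. The IRGs summed to 207 CPM in the serine/glycine-free and 486 CPM in the control CD8 cells (ratio 0.425, 0.360 to 0.503), and the GBPs to 333 and 533 CPM (0.625, 0.539 to 0.726).

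The regulator Igtp was at 49.7 CPM in the serine/glycine-free and 152 CPM in the control CD8 cells, a ratio of 0.327 (0.237 to 0.451). Tgtp1 and Tgtp2 together were at 77.0 and 190 CPM (0.404, 0.309 to 0.532). Gbp4 was at 69.5 and 152 CPM (0.456), Gbp2 at 113 and 178 CPM (0.638) and Iigp1 at 38.5 and 74.0 CPM (0.520). Gbp5, at 24.1 and 25.4 CPM from 45 and 12 UMIs, had a ratio of 0.948 whose interval (0.493 to 1.97) spans 1. Without CD8 cells holding Krt20 or C1q its ratio was 1.42 (0.679 to 3.33). In those cells Gbp3 was within the fold at 0.751 (0.437 to 1.34). Iigp1, from 21 and 13 UMIs, was at 0.516 (0.247 to 1.12), and both of these intervals span 1. The interval of Gbp7 spanned 1 as well, while those of Gbp2, Gbp4, Igtp, Irgm1, Tgtp1 and Tgtp2 lay below 1.

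RNA of other cells moved with this comparison. In CD8 cells the 8 macrophage markers summed to 199 CPM in the serine/glycine-free and 1245 CPM in the control library, and the 3 monocyte markers to 649 and 1990 CPM, Ly6c2 being one that CD8 T cells can also express. Their part in the result was not tested. Without the cells that held a Krt20 or C1q UMI the macrophage markers were at 17.5 and 27.4 CPM in 132 and 63 CD8 cells, and the member ratio there was 0.537 (0.472 to 0.612). In those cells the monocyte markers were still at 923 and 2525 CPM, and the fibroblast markers at 173 and 48.8 CPM. CD8 cells also differed in depth, with median UMIs of 8451.5 and 3810, and thinned to 1000 UMIs each they gave a member ratio of 0.455. The 10% of T cells with the most UMIs held 42.5% and 50.5% of T cell UMIs, and without the deepest 10% of CD8 cells the ratio was 0.388.

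CD4 T cells were too few to read by member. Their sums rest on 171 and 378 UMIs, and the deepest 10% of the 30 serine/glycine-free cells held 54.9% of the UMIs. Of the 10 members 3 were lower by 1.5 fold or more (Gbp2, Tgtp1 and Tgtp2), against 18.7% of genes, and 1 was higher (Gbp5), against 11.5%. Other RNA was present here as well: haemoglobin markers summed to 0 and 2702 CPM. Without cells holding Krt20 or C1q the ratio of the member sum was 1.34 in place of 0.880, and no direction is read for CD4 cells.

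Per cell, the members were not spread evenly. In Krt20-positive cells the median cell of the serine/glycine-free library had 2.55 member UMIs per 10000 of its UMIs, and the median control cell 1.001. Cells without any member UMI made up 11.2% and 22.1%. The highest 10% of cells began at 19.1 and 10.2 per 10000, and 19.2% of serine/glycine-free cells (18.1 to 20.4) lay above that control value. The shift thus ran through the low and the high end of the cells. In CD8 cells it ran the other way, with medians of 3.90 and 9.01 per 10000.

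**Figure D3:**
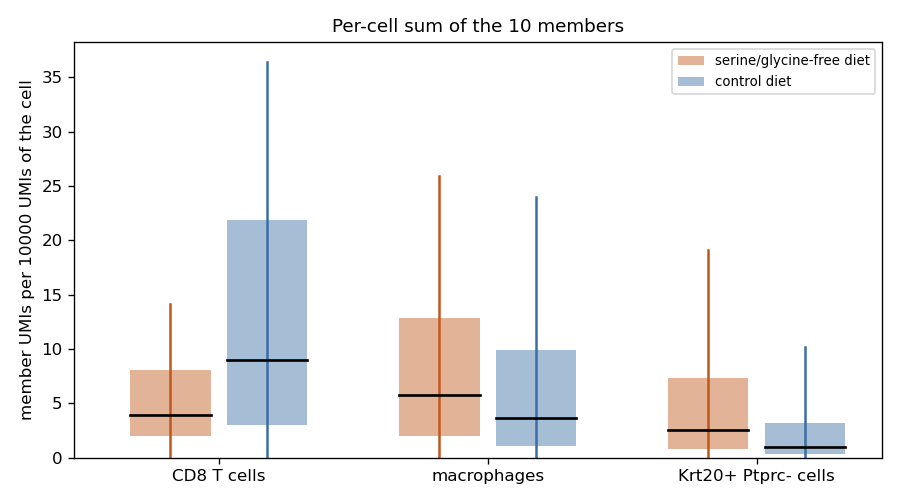
Member UMIs per 10000 UMIs of a cell (vertical axis) in CD8 T cells, macrophages and Krt20-positive, Ptprc-negative cells, serine/glycine-free left of control. Boxes run from the lower to the upper quartile of cells, black lines are medians and thin lines end where the lowest and the highest 10% of cells begin; the medians are 3.90 and 9.01 in CD8 cells and 2.55 and 1.001 in Krt20-positive cells.

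Co-detection was measured after thinning each Krt20-positive cell to 5000 UMIs, which left out 74 serine/glycine-free and 57 control cells. At least 1 member was seen in 65.2% of 4539 serine/glycine-free cells and 46.8% of 4064 control cells. At least 3 were seen in 27.5% (26.2 to 28.8) and 14.9% (13.8 to 16.0), and at least 5 in 12.8% and 6.94%. Unthinned, the shares with at least 3 were 59.7% and 41.1%. All 10 were seen in 19 and 5 thinned cells. Since no class should lack these genes, the share that free RNA gives was not measured.

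Single members followed the same order. Gbp2 was detected at 5000 UMIs in 42.4% of cells on the serine/glycine-free diet and 25.7% on the control diet, Gbp7 in 22.7% and 14.4%, Iigp1 in 20.8% and 9.92%, and Gbp5 in 5.13% and 2.78%. Thinned macrophages had at least 3 members in 45.3% of 537 serine/glycine-free cells (41.0 to 49.6) and 34.5% of 563 control cells (30.5 to 38.5).

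**Figure D4:**
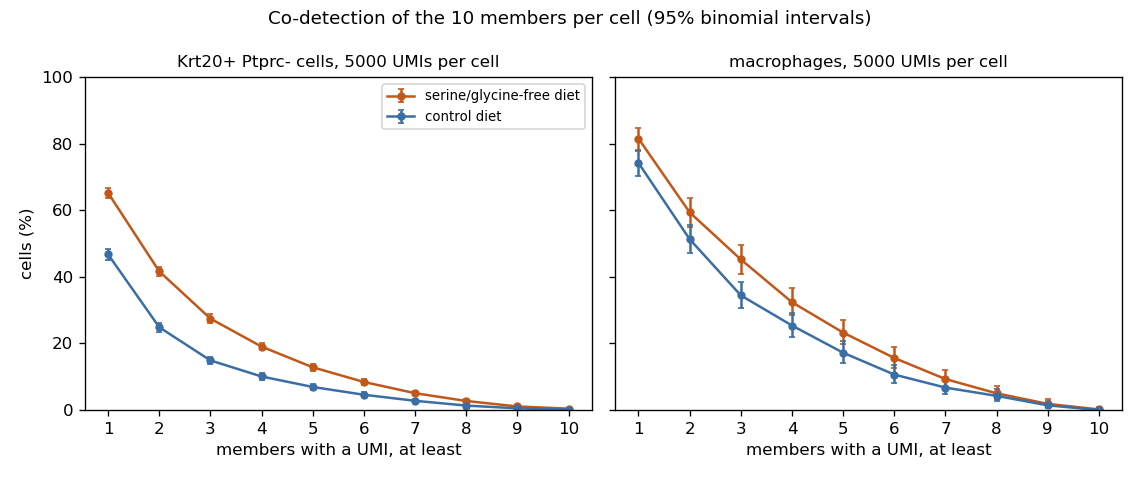
Share of cells (vertical axis, %) with at least the number of members on the horizontal axis, each cell thinned to 5000 UMIs, in Krt20-positive, Ptprc-negative cells (left) and macrophages (right), with 95% binomial intervals. The serine/glycine-free points lie above the control points from 1 to 10 members in Krt20-positive cells. At 3 members they are 27.5% and 14.9%.

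Members were found together. For each of 45 pairs, in both libraries, the second member was more often detected in Krt20-positive cells with the first than in cells without it. Pairs of other genes were not measured, so how far this is particular to the members is not known. Each pair was taken in 1 direction, with the member earlier in the alphabet first, and the ratio of the shares depends on the direction. In this order the ratio had a median of 3.32 in the serine/glycine-free and 5.03 in the control library. The highest ratio in this order was for Gbp2 and Gbp5. Gbp5 was detected in 10.1% of serine/glycine-free cells with Gbp2 and 1.49% of those without it, and in 8.91% and 0.662% of control cells. The lowest in this order were 2.39 for Gbp3 and Tgtp2 (serine/glycine-free) and 2.42 for Gbp3 and Irgm1 (control). Over both directions the highest serine/glycine-free ratio was 7.73, for Gbp5 in cells with Iigp1. The lowest ratios over both directions were for Gbp2 in cells with Irgm1, at 1.78 (serine/glycine-free) and 2.37 (control). In alphabetical order pairs within a family had median ratios of 3.71 and 5.96, and pairs of a GBP with an IRG 3.11 and 4.74. The GBP came first in all of these mixed pairs, so the 2 medians also depend on the direction taken. For the near-identical pair, Tgtp2 was detected in 47.9% and 46.7% of cells with Tgtp1, so reads shared between the copies cannot be told apart from joint expression there.

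The 10% of Krt20-positive cells with the most member UMIs held 52.2% of all member UMIs in the serine/glycine-free library and 62.4% in the control library. Ranking by the members themselves gives more than 10% for any gene, so other rankings were set beside it. Cells with the most UMIs of all genes held 15.5% and 15.3% of the member UMIs. Cells ranked by 20 other interferon-response genes held 28.7% and 33.5% after thinning. IRG UMIs in the thinned cells richest in GBPs came to 43.8% and 51.0%, and GBP UMIs in those richest in IRGs to 39.6% and 48.1%. The share was thus higher in the control library under each of these rankings but that by all UMIs. The members were also at a lower level there, 345 CPM against 586 CPM, and fewer UMIs can be held by fewer cells. The part of the level in the difference in share was not tested.

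In unthinned counts constitutive genes were less concentrated. Polr2a, a subunit of RNA polymerase, was at 50.6 and 52.8 CPM, and its top 10% of cells held 37.9% and 35.8% of it. Gbp7, at 60.0 and 35.6 CPM, had 52.3% and 63.0% in its top 10%. Iigp1 had 70.1% and 81.6%, Tgtp1 70.6% and 84.6%, and Gbp4 70.6% and 81.2%. A gene with few UMIs can be held by few cells only, so the share is compared between genes of like level.

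**Figure D5:**
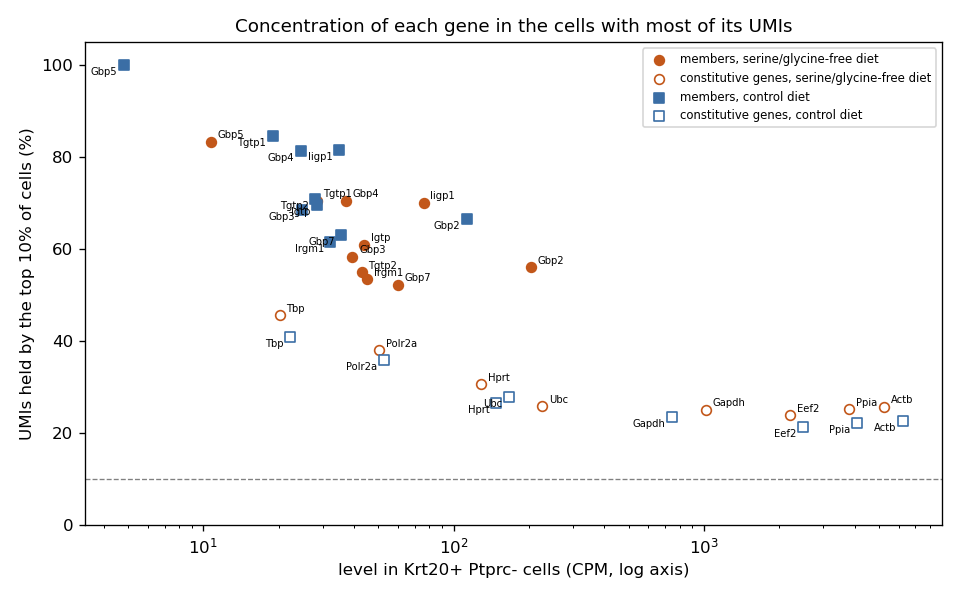
Share of a gene's UMIs held by the 10% of Krt20-positive, Ptprc-negative cells with most of them (vertical axis, %; dashed line, 10%) against its level (CPM, log axis), for the 10 members (filled) and 8 constitutive genes (open) in the serine/glycine-free (circles) and control (squares) libraries. In these unthinned counts the members lie above constitutive genes of like level, as Gbp7 at 52.3% and 63.0% beside Polr2a at 37.9% and 35.8%.

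Ranked by member UMIs per 10000 of a cell's UMIs, another set than that by plain UMIs, the member-rich 10% (462 serine/glycine-free and 413 control cells) held 46.0% and 59.5% of the member UMIs. It was chosen by the members, so what follows describes it and is no test. Such a ranking favours shallow cells: median UMIs were 17686.5 against 23766 in the rest of the serine/glycine-free library and 22813 against 25323 in the control library. Irf1 was 4.26 and 5.05 times as high in them as in the rest, and Cd274, which encodes the checkpoint ligand PD-L1, 9.01 and 11.8 times. Class I genes differed less, with H2-D1 at 1.22 and 1.24 times. The hypoxia list was lower in the member-rich cells, at 0.580 and 0.660 times the rest, Car9 at 0.429 and 0.337 times. Between diets, over all Krt20-positive cells, this list ran in the direction of the members, at 892 and 487 CPM (ratio 1.83). Endothelial markers were higher in the member-rich cells. They summed to 41.3 CPM against 3.06 CPM in the serine/glycine-free library and 8.42 CPM against 2.24 CPM in the control library. Monocyte markers summed to 270.0 against 183 CPM in the serine/glycine-free library and 174 against 89.5 CPM in the control library. Macrophage markers went opposite ways, at 18.7 against 41.2 CPM in the serine/glycine-free library and 64.2 against 39.8 CPM in the control library, and fibroblast markers were at 0.926 and 1.49 times the rest. Their part in the member levels of these cells was not tested beyond the ratio without endothelial markers given above.

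Among 7394 genes, those whose thinned UMIs varied most like the member sum over Krt20-positive cells included Ly6a, Zbp1, Gbp2b and Ifitm3. Ly6a had Pearson correlations of 0.54 in 4539 serine/glycine-free and 0.49 in 4064 control cells, and Ifitm3 0.45 and 0.44. These describe cells of 1 library each, which share its depth and its free RNA.

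The pathway was then read in order, from ligand to targets. Ifng was at 269 and 247 CPM in CD8 cells, with a ratio of 1.09 whose interval (0.889 to 1.34) spans 1. In all T cells, of which CD8 cells were 162 of 243 and 69 of 242, it was at 241 and 114 CPM (ratio 2.11, 1.78 to 2.50). In CD4 cells it was at 289 and 43.4 CPM from 65 and 19 UMIs (6.65, 3.94 to 11.7). The deepest 10% of the 30 serine/glycine-free CD4 cells held 54.9% of the UMIs, which this interval does not cover, and no direction is read there. Ifng had 8 UMIs in serine/glycine-free and 0 in control Krt20-positive cells. Of the 16 genes from ligand and receptors to regulators, 12 were measured in Krt20-positive cells, with 1 higher by 1.5 fold (Stat2), against 1.79% of all genes. None was lower, against 0.677%, and the median log2 ratio was 0.39. Ifngr1, a receptor chain, was at 33.0 and 24.5 CPM there (ratio 1.35). In CD8 cells 15 were measured, with 4 lower (Ifngr1, Stat2 and Ifnar2 among them), against 10.6% of all genes, and 1 higher (Irf8), a share near the 7.5% of all genes, and a median of -0.32. Ifngr1 was at 169 and 340 CPM in CD8 cells (ratio 0.498).

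Targets that are not GTPases ran alongside in part. Of 20 such genes 16 were measured in Krt20-positive cells, with 4 higher (Ifit1, Oasl2, Psmb9 and Cxcl10), against 1.79% of all genes. None was lower, against 0.677%, and the median log2 ratio was 0.45. Cxcl10, a chemokine that draws T cells, was at 235 and 82.6 CPM (ratio 2.85). All 20 were measured in macrophages, with 5 higher (Isg15, Ifit1, Rsad2, Cxcl9 and Cd274), against 2.15%. None was lower, against 1.43%, and the median was 0.26. In CD8 cells 18 were measured, with 8 lower (Irf7, Isg15, Ifit3, Usp18 and Cxcl10 among them), against 10.6%. None was higher, against 7.5%, and the median was -0.31. Ifit3, an antiviral protein, was at 13.9 and 137 CPM there. The class I genes B2m, H2-K1 and H2-D1 did not share that direction, with CD8 ratios of 1.17, 1.12 and 1.13.

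Of 11 further interferon-inducible GTPases 8 were matched by symbol. In CD8 cells 6 were measured and 5 of them were lower (Gbp6, Gbp8, Gbp9, Gbp2b and Ifi47), against 10.6% of all genes, with a sum of 311 CPM in the serine/glycine-free and 624 CPM in the control library. In macrophages 5 were measured, 2 of them higher (Gbp8 and Gbp2b), against 2.15%, and the 8 summed to 417 and 319 CPM. In Krt20-positive cells 2 were measured and 1 was higher, against 1.79%, with Gbp2b at 38.4 and 18.1 CPM (ratio 2.12), and the 8 summed to 142 and 89.5 CPM, a ratio of 1.59 (1.55 to 1.63). Their sums thus differed in the same direction as the 10 members in each of these classes.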

How the data were processed

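Raw UMI counts per gene and cell barcode were deposited by the authors. Per the file headers they came from Cell Ranger 7.1.0; version 2.2.2 and the build mm10 stand in the submitters' notes. Deposited contig tables gave UMI counts per assembled receptor chain. No normalized values were used. The matrices were read with scipy 1.17.1 and numpy 2.4.6. Within each class of a library the UMIs of a gene were added up and scaled to 1000000 UMIs (CPM), leaving 650 T cell receptor and immunoglobulin genes out of the total. Intervals are exact Poisson (CPM), Clopper-Pearson (shares) and conditional binomial (ratios) at 95%. A gene was measured where it averaged 20 CPM or more with 10 UMIs in 1 library, and past the fold at 1.5 after adding 5 CPM. No doublet caller was run; cells that fell into 1 class only were an alternative. Cells were thinned to 1000 (T) or 5000 UMIs (others) with seed 1. All 10 members were named in every class, with genes of listed pathways and genes among the 5 most similar; 1 gene of these lists is not reported here. Members and lists were chosen with earlier results of these data known. The ratio, interval and thinning steps were tested on simulated data, where genes brought under 20 CPM were not called. Protein features were planned, but no protein sequences were used here. Empty droplets were not analysed here. The labels do not say whether a library pools several mice.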

Additional observations from a re-analysis of the deposited data

Results flagged for a closer look

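The ratio between diets in T cells was set against that in other classes. The values below are those where the 2 classes' counting intervals lay on opposite sides of 1. With 1 library per diet none of these differences was tested. For the 10 members together the T cell ratio divided by the ratio in Krt20-positive cells was 0.370, and divided by that in macrophages 0.521. Against Krt20-positive cells the value was 0.221 for Tgtp1, 0.294 for Igtp, 0.324 for Gbp2, 0.372 for Gbp4, 0.415 for Tgtp2, 0.451 for Gbp7 and 0.521 for Irgm1. Against macrophages it was 0.330 for Gbp4, 0.362 for Igtp and 0.461 for Gbp2. RNA of other cell types and the share of CD8 cells differed between the T cells of the libraries, and their part in these values was not tested.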

How the results depend on the processing

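No paired analysis was possible because each diet had 1 library, and for the same reason no replicate could be left out. Of the alternatives listed, protein features were not run, and Krt20 of at least 3 UMIs and immune markers at 0 were run as separate settings. The member sum stayed below 1 under all 11 alternatives in T cells and all 12 in CD8 cells, and above 1 under all 9 in macrophages and all 10 in Krt20-positive cells; in CD4 cells it was below 1 under 10 of 12. Settings chosen after seeing the data were T cells without Krt20, C1q, Dcn or haemoglobin UMIs, T cells of 1000 to 10000 UMIs, leaving out the deepest 10% of cells, and endothelial markers at 0. Values that left their counting interval follow. Without Krt20 and C1q cells the sum was 0.677 in T and 1.34 in CD4 cells; without Dcn and haemoglobin as well it was 0.564 in T cells. At 1000 to 10000 UMIs it was 0.551 in T, 0.434 in CD8 and 0.729 in CD4 cells. Without the deepest 10% it was 0.495 in T, 0.388 in CD8 and 1.74 in Krt20-positive cells. Thinned, it was 0.455 in CD8 cells, 1.16 in macrophages and 1.82 in Krt20-positive cells, and as a mean of per-cell CPM 0.408, 1.16 and 1.80. With at least 2 coreceptor UMIs it was 1.96 in CD4 cells. In Krt20-positive cells it was 1.73 with at least 3 Krt20 UMIs, and 1.68 with either immune or endothelial markers at 0. Counts of members past the fold are followed by the share of all genes past it under the same setting. At a fold of 2 they were 2 lower in T (1.41%), 3 lower in CD8 (2.68%) and 1 lower in CD4 cells (8.39%), 0 higher in macrophages (0.67%) and 1 higher in Krt20-positive cells (0.531%), where a pseudocount of 1 CPM gave 6 (2.21%). Without the deepest 10% 8 were lower in T cells (9.5%). In CD4 cells the number higher was 2 with stricter cell filters (12.2%), 5 without Krt20 and C1q cells (19.5%), 3 without Dcn and haemoglobin as well (20.4%) and 0 without the deepest 10% (15.8%). The number lower there was 0 without Krt20 and C1q cells (26.7%), 0 with at least 2 coreceptor UMIs (31.7%) and 6 at 1000 to 10000 UMIs (21.3%). Of the members past the fold as reported, Gbp2 and Gbp5 changed direction, in CD4 cells. Gbp2 was at 1.18 there with at least 2 coreceptor UMIs. Gbp5 was at 0.606 there at 1000 to 10000 UMIs, 0.975 without the deepest 10%, 0.203 thinned and 0.897 as a mean per cell. Members within the fold also crossed 1 under some alternatives in T, CD8 and CD4 cells and in macrophages. Examples given above are Gbp3 and Iigp1 in T cells and Gbp5 in CD8 cells, each without Krt20 and C1q cells. In Krt20-positive cells no member crossed 1. The cause of these changes was not tested. Co-detection of at least 3 members was 40.1% and 24.0% at 10000 UMIs, 59.7% and 41.1% unthinned, and 24.4% and 13.3% with at least 3 Krt20 UMIs. The share held by the top 10% of cells was 52.9% and 63.7% thinned, 46.0% and 59.5% ranked per 10000 UMIs, and 52.9% and 63.0% with immune markers at 0. Sums in CD4 cells rest on 171 and 378 member UMIs.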

Other observations

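Cells in none of the classes gave values of their own. In 1934 serine/glycine-free and 2749 control cells without Ptprc or Krt20 UMIs the 10 members summed to 823 and 517 CPM, a ratio of 1.59 (1.56 to 1.62). Single ratios ran from 1.46 (Irgm1) to 1.74 (Gbp2), and no share over all genes is given for these cells. Iigp1 was at 111 and 71.1 CPM and Gbp2 at 271 and 156 CPM there. In 500 and 466 cells with Ptprc that fell into no class the sum was 743 and 939 CPM, a ratio of 0.791 (0.760 to 0.824). Gbp2 was at 189 and 286 CPM in those cells (0.662), and Tgtp1 at 29.4 and 28.9 CPM (1.02).

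Class II genes of the macrophages differed far more than the GTPases did: Cd74, the invariant chain, was at 8939 CPM in the serine/glycine-free and 2452 CPM in the control macrophages, a ratio of 3.65 (3.58 to 3.71), and H2-Aa at 3008 and 729 CPM. Proliferation genes summed to 415 and 601 CPM in macrophages.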
